A study of Mus musculus with 9 samples.

Results

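Decorin (Dcn), biglycan (Bgn), lumican (Lum), versican (Vcan), fibrillin-1 (Fbn1), elastin (Eln), the fibulins Fbln1, Fbln2 and Fbln5, and the microfibril protein gene Mfap4 were followed through whole mouse kidney. These 10 genes, taken by symbol, were all found among the 22637 symbols of the deposited count tables and were all among the 17315 genes with enough counts to be tested. Dcn, Bgn and Lum encode small proteoglycans, whereas versican is a large one. Messenger RNA was counted in 9 libraries of 129X1/SvJ mice at 9 weeks of age, in 3 groups of 3. The KO AntimiR-21 libraries came from Col4a3 -/- mice treated with AntimiR-21, which blocks the microRNA miR-21, the KO PBS libraries from Col4a3 -/- mice given phosphate-buffered saline, and the WT libraries from wild-type mice with no treatment. Col4a3 encodes a type IV collagen chain of the glomerular basement membrane, and mice without it model Alport syndrome, a hereditary kidney disease. The design asks what differs in the knockout kidney and in the knockout kidney given the inhibitor. Because WT mice had no injection, genotype and injection cannot be told apart, and the labels used here give no dose and do not say that each library came from its own mouse (WT held both sexes, so more than 1 mouse), so p-values measure the spread between these samples.

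Small leucine-rich proteoglycans consist of a core protein of leucine-rich repeats, most with sulfated sugar chains, that binds collagen fibrils and limits their thickness. Elastic fibres have a core of cross-linked elastin laid on a scaffold of microfibrils made of fibrillin, and fibulins and microfibril-associated proteins help to assemble them. In the kidney both kinds of matrix lie around arteries and in the interstitium, the space between the tubules, where they are known to build up in scarring.

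Total expected counts ran from 26448275 to 31786624 per library. Levels are given in CPM, the count relative to a library total scaled by edgeR's TMM factors, and log2 fold changes as estimate ± SE with p-values adjusted over all 17315 genes (called at an adjusted p under 0.05). The targeted gene Col4a3 was at 70.5 to 138 CPM in KO AntimiR-21, 44.3 to 94.3 CPM in KO PBS and 257 to 371 CPM in WT, so no knockout library reached the WT range. By Y-linked transcripts 2 WT libraries were female and the other 7 libraries male. The deposited column names hold the letter F for WT 1 and WT 3 and M for WT 2. Each name also begins with a different number, whose meaning is not stated. They carry a further code of unstated meaning, L4 for WT and for KO PBS 1 and 2, and L5 for KO PBS 3 and KO AntimiR-21. KO AntimiR-21 3 stood apart in adipocyte markers, which summed to 525 CPM there and to 33.7 to 225 CPM in the other libraries. Tubule markers, which define the tissue, summed to 8482 to 12022 CPM in KO AntimiR-21, 3569 to 8212 CPM in KO PBS and 11660 to 17410 CPM in WT.

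In KO PBS kidneys most of these genes stood above WT. Of the 10 genes 7 rose and 0 fell (edgeR quasi-likelihood test), against a background of 14.6% of all tested genes called higher, 9.85% called lower and 24.4% called in either direction. The same 7 had no KO PBS library within the WT range, where 22.6% of all genes were higher without overlap. The largest changes were in Mfap4 and Fbn1 on the microfibril side and in Bgn among the proteoglycans, whereas Lum, Vcan and Fbln5 did not pass. The median log2 fold change of the 10 was 1.35, against -0.03 over all genes. In KO AntimiR-21 against KO PBS no gene of the 10 passed, where 0% of all genes did, and all 10 estimates were below 0, versican at -0.45 by its Vcan row and at -0.01 by the sum of its rows. These comparisons share the KO PBS libraries, so a high KO PBS value enters each with opposite sign.

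**Figure D1:**
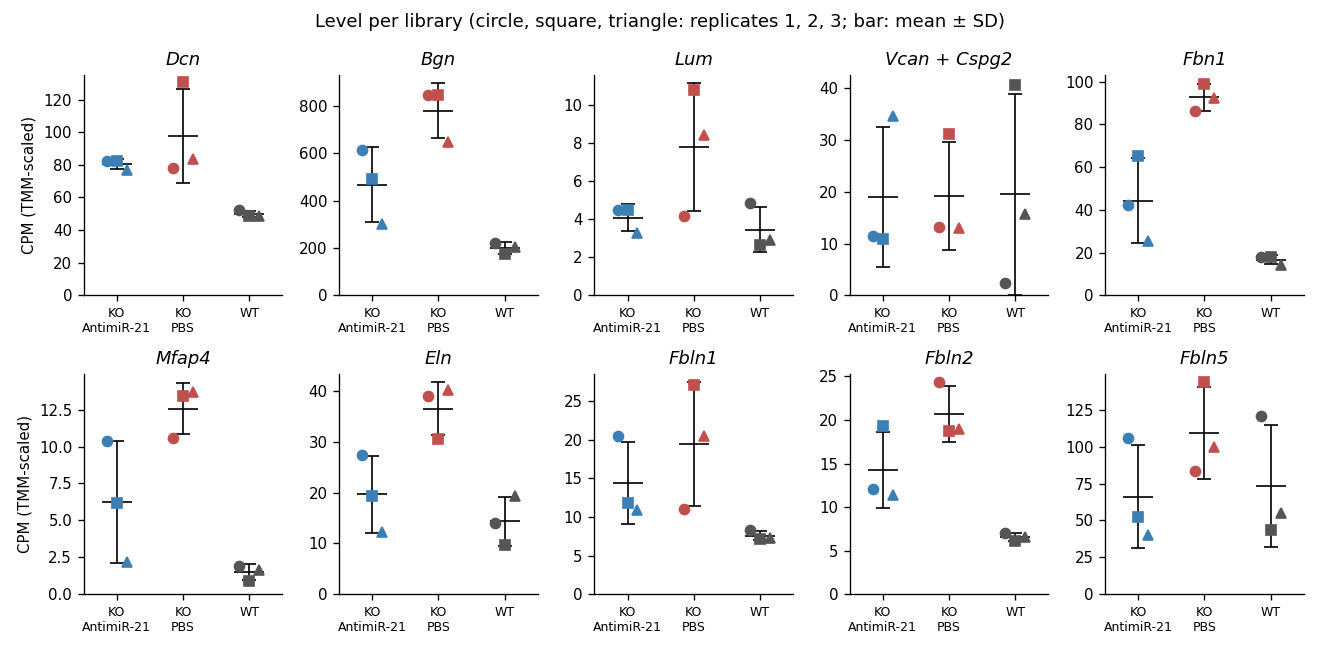
Level of each gene in CPM (vertical axes from 0) in every library of KO AntimiR-21, KO PBS and WT; symbols mark replicates 1, 2 and 3, and the bar is the mean ± SD of 3 libraries. For 7 genes all KO PBS libraries lie above all WT libraries, and versican, shown as the sum of its 2 rows, has a wide spread in each group.

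The sequence that the inhibitor is directed at and the promoters of 3 genes are shown to give the sequence context of these changes. The mature miR-21 of the mouse, from RefSeq, lies at chr11:86584120-86584141 on the minus strand of GRCm38.p6, and capitals mark its seed, bases 2 to 8, the stretch that pairs with target messages. Bgn (chrX:73483351-73483650, plus strand), Fbn1 (chr2:125506389-125506688, minus strand) and Fbln2 (chr6:91212514-91212813, plus strand) were chosen because all 3 rose in both knockout groups and their levels followed one another closely. Their promoters are given from 250 bases before to 50 bases after the start, from RefSeq on GRCm38.p6, with capitals at GGGCGG or its reverse complement, the GC box.
mmu-miR-21a-5p: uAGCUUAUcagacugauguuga
Bgn promoter: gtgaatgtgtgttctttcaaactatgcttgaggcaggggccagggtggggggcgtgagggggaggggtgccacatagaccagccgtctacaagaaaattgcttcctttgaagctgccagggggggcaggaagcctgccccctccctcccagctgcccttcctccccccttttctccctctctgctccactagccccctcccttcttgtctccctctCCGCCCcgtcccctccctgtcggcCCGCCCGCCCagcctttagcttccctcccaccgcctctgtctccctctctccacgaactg
Fbn1 promoter: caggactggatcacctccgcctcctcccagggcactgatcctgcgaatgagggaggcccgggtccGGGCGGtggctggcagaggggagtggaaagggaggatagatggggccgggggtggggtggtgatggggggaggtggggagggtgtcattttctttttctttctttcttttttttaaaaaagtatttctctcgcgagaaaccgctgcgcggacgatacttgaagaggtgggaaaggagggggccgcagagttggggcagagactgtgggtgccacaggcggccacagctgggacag
Fbln2 promoter: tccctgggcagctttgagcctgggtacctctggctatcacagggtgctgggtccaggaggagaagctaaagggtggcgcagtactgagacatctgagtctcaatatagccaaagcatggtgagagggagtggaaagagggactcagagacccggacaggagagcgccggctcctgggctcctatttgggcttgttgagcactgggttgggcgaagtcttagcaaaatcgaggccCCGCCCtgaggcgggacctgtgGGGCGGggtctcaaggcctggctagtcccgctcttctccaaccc

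Matches to the miR-21 seed were looked for in the 3′ untranslated region of each gene (the longest in GENCODE vM21). The letters searched were ATAAGCT and, one base along, also TAAGCTA, which overlap in the longer site ATAAGCTA. None of the 10 genes held one (0 of 10), against 1450 of 11774 tested genes with a region (12.3%). Regions searched ran from 488 bases in Dcn to 4177 bases in Fbln5. A RefSeq promoter was matched for 6 of the 10 genes (Bgn, Fbln1, Fbln2, Fbln5, Fbn1 and Vcan), with 8 promoters in all. Fbln5 and the Vcan row did not pass in KO PBS relative to WT, and the promoters of Fbln1 overlap one another. A GC box on either strand was in 6 of these 8 promoters, at least 1 for each of the 6 genes, against 35.7% of 32851 mouse promoters of the same length. The Bgn promoter held 3, of which 2 overlap, Fbn1 held 1 and Fbln2 held 2. Other letters were also searched on either strand. Those of the TATA box (TATAAA) were in 0 of the 8, against 13.6% of all promoters. Those of an AP-1 site (TGANTCA) were in 0 of the 8, against 7.81%. CANNTG was in 7 of the 8, against 72.3%, and CAGACA in 3 of the 8, against 21%. The overlapping promoters of Fbln1 hold the same CAGACA site, which was counted for each. GTCTAGAC and GGAATG were each in 0 of the 8, against 0.213% and 14.7%. The guanine and cytosine content was 63.7% for Bgn and 60.3% for each of Fbn1 and Fbln2, against a median of 52.7%.

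Among the proteoglycans Bgn, which binds collagen and, when released, is known to signal through Toll-like receptors, was higher in both knockout groups than in WT. It was at 614, 489 and 299 CPM in KO AntimiR-21 1, 2 and 3, at 845, 845 and 645 CPM in KO PBS 1, 2 and 3, and at 221, 173 and 205 CPM in WT 1, 2 and 3. The 3 groups did not overlap, with KO PBS highest and WT lowest. Bgn rose 3.89-fold in KO PBS relative to WT (log2 fold change 1.96 ± 0.27, edgeR adjusted p = 0.00197), with means of 778 ± 115 CPM in KO PBS and 200 ± 24.3 CPM in WT (SD, n = 3 each). In KO AntimiR-21 it averaged 468 ± 159 CPM (SD, n = 3) and stood at -0.74 ± 0.26 relative to KO PBS, with an edgeR p of 0.0194 before and 0.707 after adjustment. Relative to WT it rose in KO AntimiR-21 as well (1.23 ± 0.26, edgeR adjusted p = 0.0236).

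Dcn, the decorin gene, whose protein decorates collagen fibrils and binds the growth factor TGF-beta, changed less. It was at 82.3, 82.3 and 77 CPM in KO AntimiR-21, at 78.2, 131 and 83.7 CPM in KO PBS, and at 52.2, 48.7 and 48.6 CPM in WT. All 6 knockout libraries lay above all WT libraries, and KO PBS 2 stood alone at the top while the other 5 knockout libraries kept within a narrow band. Dcn rose in KO PBS relative to WT (0.97 ± 0.19, edgeR adjusted p = 0.00756). Between the knockout groups, KO AntimiR-21 stood at -0.28 ± 0.19 relative to KO PBS (edgeR adjusted p = 0.773), and at -0.01 without KO PBS 2. Relative to WT, KO AntimiR-21 stood at 0.69 ± 0.19 (edgeR adjusted p = 0.061), on the other side of the threshold in 6 of 20 alternatives.

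Lum, which organises collagen fibrils in cornea and other connective tissue, was low. Its levels were 4.5, 4.48 and 3.27 CPM in KO AntimiR-21, 4.16, 10.8 and 8.41 CPM in KO PBS, and 4.85, 2.65 and 2.89 CPM in WT. KO PBS 1 lay inside the WT range, so the groups overlapped, whereas KO PBS 2 and 3 lay above every other library. The KO PBS estimate relative to WT was 1.17 ± 0.38 (edgeR adjusted p = 0.0536) and passed in 4 of 21 alternatives, among them without KO PBS 1 (1.46, edgeR adjusted p = 0.0244) and without WT 1 (1.51, edgeR adjusted p = 0.041). Relative to KO PBS, KO AntimiR-21 stood at -0.93 ± 0.38 with an edgeR p of 0.0358 before and 0.707 after adjustment.

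The ratio of Bgn to Dcn within a library does not depend on how libraries are scaled. It was 7.47, 5.94 and 3.88 in KO AntimiR-21, 10.8, 6.46 and 7.71 in KO PBS, and 4.24, 3.56 and 4.22 in WT. All KO PBS libraries lay above all WT libraries, by a mean difference of 1.03 on the log2 scale (two-sided exact permutation test, p = 0.1, the smallest that 3 against 3 can give, 0.4 adjusted over 12 tests). Lum to Dcn did not separate KO PBS from WT (0.19 on the log2 scale, exact permutation p = 0.8).

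Versican, a large proteoglycan that binds hyaluronan in loose and provisional matrix, was split over 2 rows of the tables, Vcan and its older symbol Cspg2. The Vcan row alone was at 1.38, 4.19 and 9.39 CPM in KO AntimiR-21, at 2.44, 11.1 and 7.04 CPM in KO PBS, and at 0.866, 22.5 and 7.26 CPM in WT. Its range in WT held every other library. The row stood at -0.58 ± 1.01 in KO PBS relative to WT (edgeR adjusted p = 0.734) and at -0.45 ± 1.02 in KO AntimiR-21 relative to KO PBS (edgeR adjusted p = 0.963), and both signs turned in alternatives. Summed over both rows the level was 11.4, 10.9 and 34.6 CPM in KO AntimiR-21, 13.2, 31.2 and 13.1 CPM in KO PBS, and 2.36, 40.6 and 15.7 CPM in WT. One library in each group stood well above the other 2, and the means nearly coincided, at 19 ± 13.6 CPM in KO AntimiR-21, 19.1 ± 10.4 CPM in KO PBS and 19.5 ± 19.4 CPM in WT (SD, n = 3 each). The summed rows gave -0.03 ± 0.85 for KO PBS relative to WT (edgeR adjusted p = 0.986) and -0.01 ± 0.85 for KO AntimiR-21 relative to KO PBS (edgeR adjusted p = 0.999), intervals wide enough to hold changes as large as those of Dcn. WT 1 and WT 2, at the ends of the range, were a female and a male library, and WT 3, at 15.7 CPM, was also female. The knockout libraries, all male, ran from 10.9 to 34.6 CPM.

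**Figure D2:**
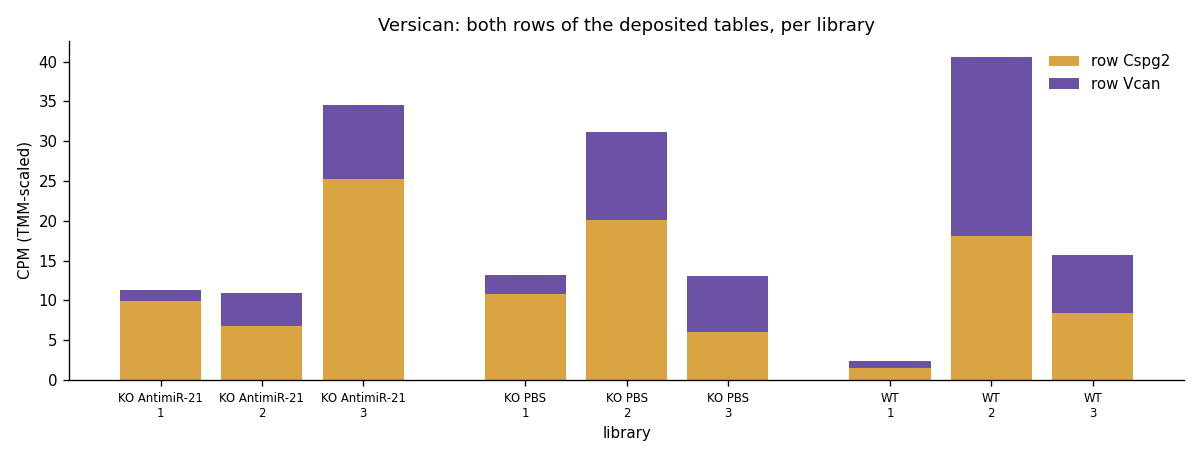
Stacked bars of the Cspg2 and Vcan rows in CPM (vertical axis from 0) for each library of KO AntimiR-21, KO PBS and WT. The sum is highest in KO AntimiR-21 3 (34.6), KO PBS 2 (31.2) and WT 2 (40.6), and the share of each row differs between libraries.

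Of the microfibril genes Fbn1, which encodes the main fibrillin of adult microfibrils and is mutated in Marfan syndrome, changed most steadily. It was at 42.2, 65.2 and 25.6 CPM in KO AntimiR-21, at 86.4, 99 and 92.5 CPM in KO PBS, and at 18.1, 17.8 and 14.3 CPM in WT. The 3 groups formed separate ranges, and KO AntimiR-21 had the widest. Fbn1 rose 5.53-fold in KO PBS relative to WT (2.47 ± 0.30, edgeR adjusted p = 0.00149), averaging 92.6 ± 6.32 CPM in KO PBS and 16.8 ± 2.13 CPM in WT (SD, n = 3 each). Relative to KO PBS, KO AntimiR-21 stood at -1.06 ± 0.29, which is 0.479-fold, with an edgeR p of 0.0049 before and 0.707 after adjustment. Relative to WT it rose in KO AntimiR-21 (1.40 ± 0.29, edgeR adjusted p = 0.0209). An annotated transcript on the opposite strand, Gm9913, overlaps Fbn1 exons, and the strand setting of the counting is not given in the sources used here.

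Mfap4, a fibrinogen-domain protein that binds elastin and microfibrils, had the largest change and few counts. It was at 10.4, 6.18 and 2.17 CPM in KO AntimiR-21, at 10.6, 13.4 and 13.7 CPM in KO PBS, and at 1.94, 0.922 and 1.65 CPM in WT. The ranges of the 3 groups did not overlap, but KO AntimiR-21 1 came within a small distance of KO PBS 1, and KO AntimiR-21 3 of WT 1. KO PBS libraries held 388 to 440 counts of Mfap4 and WT libraries 23 to 46. Mfap4 rose 8.35-fold in KO PBS relative to WT (3.06 ± 0.53, edgeR adjusted p = 0.00489). In KO AntimiR-21 it also rose relative to WT (2.05 ± 0.52, edgeR adjusted p = 0.0482), a call lost in 14 of 20 alternatives, and it stood at -1.01 ± 0.49 relative to KO PBS (edgeR adjusted p = 0.707). Its exons overlap those of Mapk7 on the opposite strand.

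Eln, the gene of the elastin core itself, was at 27.4, 19.3 and 12.3 CPM in KO AntimiR-21, at 39, 30.5 and 40.2 CPM in KO PBS, and at 14, 9.66 and 19.4 CPM in WT. All KO PBS libraries were above all others, while KO AntimiR-21 and WT overlapped. Eln rose in KO PBS relative to WT (1.35 ± 0.33, edgeR adjusted p = 0.0182), and the call was lost when WT 1, WT 2 or KO PBS 1 was left out (edgeR adjusted p = 0.0542, 0.0518 and 0.0525). KO AntimiR-21 stood at -0.90 ± 0.32 relative to KO PBS, with an edgeR p of 0.0213 before and 0.707 after adjustment. Relative to WT it stood at 0.46 ± 0.32 (edgeR adjusted p = 0.496). The opposite-strand transcript Gm30003 overlaps its exons.

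The ratio of Eln to Fbn1 was 0.649, 0.296 and 0.479 in KO AntimiR-21, 0.451, 0.308 and 0.435 in KO PBS, and 0.77, 0.542 and 1.35 in WT. Every KO PBS library lay below every WT library, a mean difference of -1.07 on the log2 scale (two-sided exact permutation test, p = 0.1, the smallest possible). Adjusted over the 12 ratio tests its p was 0.4. Fewer elastin per fibrillin-1 messages in KO PBS is therefore a description of these 6 libraries. Fbln5 to Fbln2, the remaining ratio tested, differed by -0.98 on the log2 scale in KO PBS relative to WT (exact permutation p = 0.2, 0.4 adjusted).

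The fibulins are rod-like glycoproteins that link elastin, fibrillin and basement membrane proteins. Fbln2, which binds fibrillin-1 and elastin, was at 12.1, 19.3 and 11.4 CPM in KO AntimiR-21, at 24.4, 18.7 and 19 CPM in KO PBS, and at 7.04, 6.05 and 6.55 CPM in WT. Both knockout groups lay above WT, and the 2 knockout groups overlapped through KO AntimiR-21 2. Fbln2 rose in KO PBS (1.66 ± 0.23, edgeR adjusted p = 0.00204) and in KO AntimiR-21 (1.12 ± 0.23, edgeR adjusted p = 0.0191), each relative to WT. Relative to KO PBS, KO AntimiR-21 stood at -0.54 ± 0.22 with an edgeR p of 0.0388 before and 0.707 after adjustment.

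Fbln1, found in elastic fibres and around vessels, was at 20.5, 11.8 and 10.9 CPM in KO AntimiR-21, at 11, 27 and 20.4 CPM in KO PBS, and at 8.31, 7.14 and 7.31 CPM in WT. The knockout groups overlapped widely and neither reached down to WT. Fbln1 rose in KO PBS relative to WT (1.36 ± 0.35, edgeR adjusted p = 0.0229), but its call was lost in 10 of 21 alternatives, with any WT library left out and with KO PBS 2 or KO PBS 3 left out (edgeR adjusted p = 0.0511 to 0.0798). KO AntimiR-21 stood at 0.92 ± 0.35 relative to WT (edgeR adjusted p = 0.174) and at -0.43 ± 0.34 relative to KO PBS (edgeR adjusted p = 0.815).

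Fbln5, which is required for elastic fibre assembly in mice, was at 106, 52.5 and 40.1 CPM in KO AntimiR-21, at 83.5, 144 and 99.9 CPM in KO PBS, and at 121, 43.8 and 55.3 CPM in WT. One library of KO AntimiR-21 and one of WT reached the KO PBS range, so no pair of groups was apart. The estimates were 0.57 ± 0.46 for KO PBS relative to WT (edgeR adjusted p = 0.41) and -0.72 ± 0.46 for KO AntimiR-21 relative to KO PBS (edgeR adjusted p = 0.755). The high WT library was WT 1, a female, whereas WT 3, also female, was at 55.3 CPM, near the male WT 2 at 43.8 CPM. Among male libraries KO PBS stood at 1.34 relative to the lone male WT library, and this did not pass (edgeR adjusted p = 0.223).

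**Figure D3:**
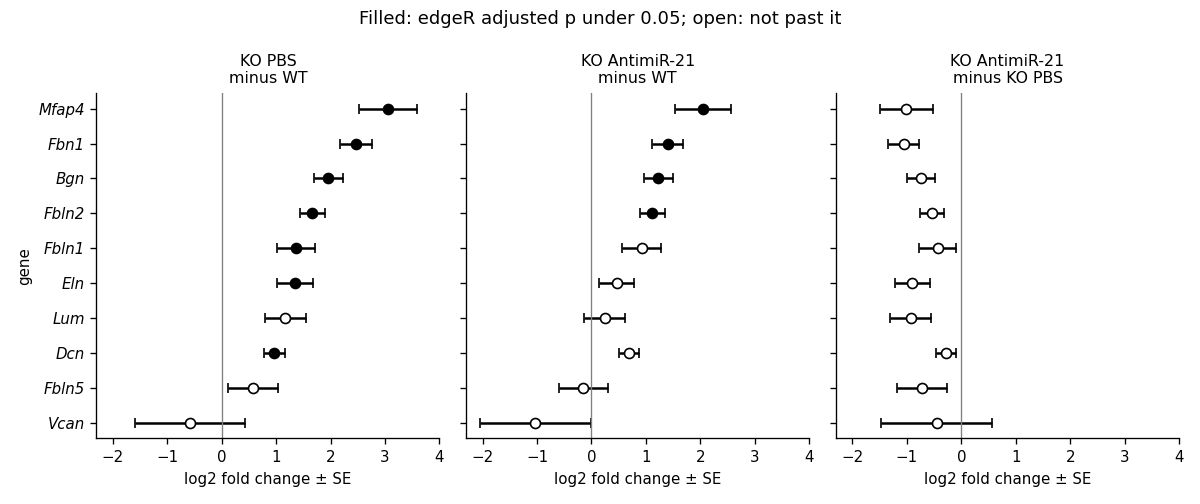
Log2 fold change ± SE of each gene (horizontal axes, one panel per comparison; filled points have an edgeR adjusted p under 0.05). The right panel, KO AntimiR-21 minus KO PBS, holds 10 open points, from -0.28 for Dcn to -1.06 for Fbn1; versican is its Vcan row alone (-0.45), and the sum of its rows is at -0.01.

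Read across the 10 genes, KO AntimiR-21 stood below KO PBS without any gene passing the threshold. The median log2 fold change was -0.73, against -0.01 over all genes, and 51.9% of all genes had a lower mean in KO AntimiR-21. In 4 genes (Bgn, Fbn1, Eln and Mfap4) no KO AntimiR-21 library reached the KO PBS range, where 6.84% of all genes were lower without overlap. At an unadjusted p under 0.05 edgeR had 5 of the 10 genes (Bgn, Lum, Fbn1, Eln and Fbln2), where 1203 of all genes (6.95%) had one. DESeq2 called 18 genes in this comparison and 0 of the 10. KO AntimiR-21 3 was the lowest library of its group in 9 of the 10 genes, versican, counted as the sum of its rows, being the exception. Without that library the median was -0.52, and among libraries of code L5, which leaves KO PBS 3 alone in its group, it was -0.55, with 0 of 10 called in each.

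Relative to WT, KO AntimiR-21 had 4 of the 10 genes higher (Bgn, Fbn1, Fbln2 and Mfap4) and 0 lower, against a background of 6.72% of all genes called higher, 0.427% called lower and 7.15% called in either direction. In 6 of the 10 genes all KO AntimiR-21 libraries lay above all WT libraries, against 14.6% of all genes. The number of calls changed with single libraries: without WT 1, WT 2 or WT 3 the test passed 0, 1 and 0 of the 10, and without KO AntimiR-21 1 or 2 it passed 1 and 2. Calls over all genes, 1238 with every library, numbered 758, 1160 and 667 without WT 1, WT 2 and WT 3, and 795 and 679 without KO AntimiR-21 1 and 2. The call of Bgn was lost in 9 of 20 alternatives, that of Fbln2 in 8 and that of Fbn1 in 7. All KO AntimiR-21 libraries carried the code L5 and all WT libraries L4, so code and group cannot be told apart here; with the code as a covariate, read through KO PBS, 0 of the 10 passed at a median of 0.92.

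The sex imbalance bears on each comparison with WT. With sex as a covariate 0 of the 10 genes, and 0 of all genes, passed in KO PBS relative to WT, although the median log2 fold change was 1.67, and among male libraries, with WT 2 alone on its side, it was 1.69. All knockout libraries were male, so in the covariate fit too WT 2 alone stood for WT. The likeness of both medians therefore follows from the design. In the covariate fit Fbn1 stood at 2.38 and Bgn at 2.17 (edgeR adjusted p = 0.0553 for each). Within code L4, which leaves KO PBS 1 and 2 against the 3 WT libraries, 6 of the 10 passed at a median of 1.31, where 3116 of 17266 genes passed, 1970 of them higher.

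Levels were also compared between genes, per kilobase of the longest annotated transcript, since longer messages give more counts. A shorter transcript would give a higher level, and which transcripts were present was not tested. Fbln5 has annotated transcripts of 2371 and 5829 bases, so its place relative to Dcn depends on this choice. In WT the order by mean was Bgn (82.6 CPM per kb), Dcn (28.3), Fbln5 (12.6) and Eln (3.72), then Fbln1 (2.07), versican (1.57), Lum (1.41), Fbn1 (1.4), Fbln2 (1.37) and Mfap4 (0.873). The first 4 were each separate from the next gene down, whereas Fbln1, versican, Lum and Fbn1 each overlapped the next, so their order is not resolved; Fbln2 was separate from Mfap4. In KO PBS Bgn, Dcn and Fbln5 again led, at 322, 55.5 and 18.7 CPM per kb and each separate from the next. Eln (9.49) then overlapped Fbn1 (7.74), and below came Mfap4 (7.29), Fbln1 (5.32), Fbln2 (4.33), Lum (3.18) and versican (1.54), where each gene from Fbn1 down overlapped the next. In KO AntimiR-21 Bgn (193 CPM per kb) and Dcn (45.8) led again, and from Fbln5 (11.4) down to Mfap4 (3.63) each overlapped the next.

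**Figure D4:**
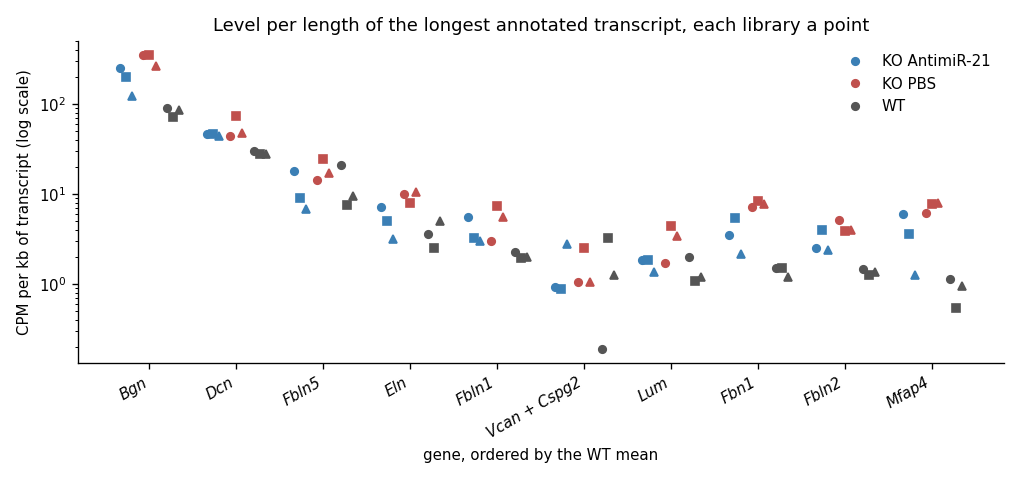
CPM per kilobase of the longest annotated transcript (log scale) for each gene in each library of KO AntimiR-21, KO PBS and WT, genes ordered by the WT mean; versican is the sum of its rows. By this length Bgn and Dcn stand above the others in each group.

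How alike the genes were over the 9 libraries is given as Pearson's r of log2 CPM, a description over points that share libraries and the group differences. Bgn and Mfap4 were closest (r = 0.98), then Fbn1 and Fbln2 (0.96), Eln and Mfap4 (0.92), and Dcn and Fbln1 (0.90). Bgn reached 0.95 with Fbn1 and 0.93 with Fbln2. Lum was nearest Fbln1 (0.85), and Fbln5 nearest Lum (0.79). The Vcan row had no close partner, with 0.05 to Dcn as its highest and -0.51 to Fbln5 as its lowest. Among 12465 other genes the 5 most like the mean profile of the 10 were Emilin1 (r = 0.987), an elastin-microfibril interface protein, the basement membrane collagen genes Col4a2 (0.979) and Col4a1 (0.976), the actin-bundling gene Fscn1 (0.977) and the cell-surface proteoglycan gene Sdc3 (0.977). Emilin1 was at 64.5, 56.9 and 31.1 CPM in KO AntimiR-21, at 84.8, 112 and 94.4 CPM in KO PBS, and at 30.6, 21.7 and 23.2 CPM in WT.

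The rest of the elastic fibre apparatus was read from a list of 24 further genes. In KO PBS relative to WT 14 rose and 0 fell, with a median log2 fold change of 1.62. Over all genes 14.6% rose and 9.85% fell, at a median of -0.03. The fetal fibrillin gene Fbn2 was at 5.89, 5.57 and 5.37 CPM in KO PBS and at 0.211, 0.401 and 0.322 CPM in WT, a rise of 4.15 ± 0.49 (edgeR adjusted p = 0.00147). Lox, the lysyl oxidase that cross-links elastin and collagen, was at 39.5, 33.3 and 23.7 CPM in KO PBS and at 2.78, 5.17 and 4.18 CPM in WT (2.99 ± 0.38, edgeR adjusted p = 0.00165). Ltbp2, a fibrillin-like microfibril protein, rose by 5.21 ± 0.71 (edgeR adjusted p = 0.00194) and Emilin1 by 1.95 ± 0.27 (edgeR adjusted p = 0.00206). Each of these 4 genes had no overlap between KO PBS and WT. Of others named after their values were seen, the microfibril genes Mfap2 and Mfap5 and the fibulin-4 gene Efemp2 rose, whereas Ltbp1, Ltbp3, Ltbp4, Efemp1 (fibulin-3) and Tnxb did not pass. In KO AntimiR-21 relative to KO PBS 0 of 24 passed and the median was -0.58. The lowest p-values there were those of Fbn2, at 1.05, 2.13 and 0.588 CPM in KO AntimiR-21 (-2.15 ± 0.43), Lox, at 6.48, 15.2 and 8.16 CPM (-1.69 ± 0.36), and Emilin1 (-0.93 ± 0.26), each without overlap and each at an edgeR adjusted p of 0.707. Relative to WT 8 of the 24 rose in KO AntimiR-21, where 6.72% of all genes rose.

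Other small leucine-rich proteoglycans did not follow Bgn and Dcn as a group. Of 10 tested, 1 rose and 2 fell in KO PBS relative to WT, with a median of -0.13. Over all genes 14.6% rose and 9.85% fell, at a median of -0.03. Podnl1 rose by 2.24 ± 0.56 (edgeR adjusted p = 0.0212), at 1.64, 2.2 and 2.89 CPM in KO PBS and 0.127, 0.601 and 0.683 CPM in WT. Podn, the podocan gene, fell to 23.6, 23.7 and 27 CPM in KO PBS, against 35.1, 55.7 and 67.1 CPM in WT (-1.09 ± 0.28, edgeR adjusted p = 0.0228). Aspn, the asporin gene, was at 1.23, 2.34 and 1.68 CPM in KO PBS and 2.66, 4.33 and 5.43 CPM in WT (-1.24 ± 0.36, edgeR adjusted p = 0.0368). In KO AntimiR-21 relative to KO PBS 0 of the 10 passed, at a median of -0.14, with Podn at 0.67 ± 0.28, Ogn at -0.52 ± 0.24 and Prelp at -0.54 ± 0.27 having the lowest p-values.

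Around versican, a hyaluronan synthase and the hyaluronan receptor stood higher in KO PBS, while no other tested gene of this group passed. Has3, Hapln3 and Hapln4 stood at -0.44 ± 0.28, -1.06 ± 0.66 and 1.01 ± 0.55 in KO PBS relative to WT. Of 6 tested genes of hyaluronan and its binding partners 2 rose in KO PBS relative to WT and 0 fell, against 14.6% and 9.85% of all genes. The hyaluronan synthase gene Has2 had 50, 40 and 28 counts in KO PBS and 0, 1 and 1 counts in WT (edgeR adjusted p = 0.00188), and 12, 14 and 4 counts in KO AntimiR-21. Cd44, the hyaluronan receptor, was at 63.5, 63.9 and 81 CPM in KO PBS and at 1.81, 6.93 and 1.77 CPM in WT (4.30 ± 0.60, edgeR adjusted p = 0.00204). Cd44 stayed high in KO AntimiR-21, at 64.9, 73.1 and 27.5 CPM. These were the 2 that rose in KO AntimiR-21 relative to WT, where 6.72% of all genes rose. The link protein gene Hapln1 had 7, 5 and 10 counts in KO PBS and 8, 36 and 8 counts in WT. It stood at -1.64 ± 0.69 in KO PBS relative to WT, lower without overlap in CPM (edgeR adjusted p = 0.12). In KO AntimiR-21 Hapln1 stood at 1.07 ± 0.70 relative to KO PBS (edgeR adjusted p = 0.764). Acan, Ncan and Bcan, the other large proteoglycans of this family, were under 1 CPM in every library.

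Of 18 genes for the chondroitin and dermatan sulfate chains that these core proteins carry, 6 rose and 0 fell in KO PBS relative to WT. Their median was 0.16, against -0.03 over all genes, of which 14.6% rose and 9.85% fell. Chsy1, which lengthens chondroitin chains, was at 16.4, 14.9 and 11.4 CPM in KO PBS and 6.49, 6.41 and 5.71 CPM in WT (1.20 ± 0.18, edgeR adjusted p = 0.00252). Dse, the epimerase that turns chondroitin into dermatan sulfate, rose by 1.46 ± 0.25 (edgeR adjusted p = 0.00483) and the polymerizing factor Chpf, listed as D1Bwg1363e, by 0.62 ± 0.13 (edgeR adjusted p = 0.0114). In KO AntimiR-21 relative to KO PBS 0 of 18 passed. The lowest p-values there were those of Dse at -0.75 ± 0.25, D1Bwg1363e at -0.45 ± 0.13 and Ust at -0.65 ± 0.25. Relative to WT 1 rose in KO AntimiR-21, Chsy1, where 6.72% of all genes rose.

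Of 14 tested proteases that cut proteoglycans or elastin 10 rose and 0 fell in KO PBS relative to WT. Their median was 2.10, against -0.03 over all genes, of which 14.6% rose and 9.85% fell. Mmp2, a gelatinase, was at 45.6, 66 and 58.3 CPM in KO PBS and 10.5, 10.2 and 9.17 CPM in WT (2.51 ± 0.24, edgeR adjusted p = 0.00135). Mmp12, the macrophage elastase, was at 43.5, 41 and 39.3 CPM in KO PBS and 12.3, 11.5 and 12.6 CPM in WT (1.77 ± 0.18, edgeR adjusted p = 0.00135). Mmp9 rose by 3.87 ± 0.43 (edgeR adjusted p = 0.00135). In KO AntimiR-21 relative to KO PBS 0 of 14 passed at a median of -0.62. There Adamts4 and Adamts1, which cut versican, stood at -1.55 ± 0.37 and -0.87 ± 0.27, both without overlap (edgeR adjusted p = 0.707 for each). Relative to WT 8 of the 14 rose in KO AntimiR-21, where 6.72% of all genes rose.

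Of 16 receptors known for these matrix proteins or their fragments 7 rose and 0 fell in KO PBS relative to WT. Their median was 0.61, against -0.03 over all genes, of which 14.6% rose and 9.85% fell. Tlr2, a Toll-like receptor for released biglycan, was at 47.8, 43.4 and 58.9 CPM in KO PBS and 5.36, 7.29 and 5.59 CPM in WT (3.04 ± 0.31, edgeR adjusted p = 0.00135). The other such receptor, Tlr4, stood at 0.64 ± 0.48 and did not pass (edgeR adjusted p = 0.383). Lrp1, an endocytic receptor that takes up decorin, was at 173, 191 and 185 CPM in KO PBS and 60.2, 70.2 and 54.8 CPM in WT (1.56 ± 0.16, edgeR adjusted p = 0.00135), and Itga5 rose by 1.61 ± 0.23 (edgeR adjusted p = 0.00215). In KO AntimiR-21 relative to KO PBS 0 of 16 passed at a median of -0.17, Lrp1 standing at -0.70 ± 0.16 without overlap. Relative to WT 5 rose in KO AntimiR-21, where 6.72% of all genes rose. They were Tlr2, Lrp1, Itga5 and, named after their values were seen, P2rx7 and Lgals3.

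Some markers of the cells that make this matrix also stood higher in KO PBS. In whole tissue a change in the number of cells and a change in RNA per cell cannot be told apart. Fibroblast markers summed to 1200, 1150 and 527 CPM in KO AntimiR-21, 2141, 2428 and 1936 CPM in KO PBS, and 312, 278 and 267 CPM in WT. Of 10 fibroblast markers 5 rose in KO PBS relative to WT, the collagen genes Col1a1, Col1a2 and Col3a1 together with Dpt and Gli1, whereas Pdgfra, Pi16, Cd34, Tcf21 and Meg3 (listed as Gtl2) did not pass. Over all genes 14.6% rose and 9.85% fell in KO PBS relative to WT. The fibroblast sums rest on the 3 collagen genes, which are matrix genes themselves. The other 7 markers summed to 175, 137 and 128 CPM in KO AntimiR-21, 160, 210 and 186 CPM in KO PBS, and 121, 128 and 135 CPM in WT, so that KO PBS lay above WT by far less. Smooth muscle and pericyte markers summed to 534, 483 and 371 CPM in KO AntimiR-21, 957, 902 and 683 CPM in KO PBS, and 388, 330 and 387 CPM in WT. There 5 of 10 rose in KO PBS (Acta2, Tagln, Pdgfrb, Cspg4 and Notch3), whereas Myh11, Cnn1, Des, Smtn and Rgs5 did not pass. Much of the difference in these sums lay in Acta2 and Tagln, with means of 154 and 260 CPM in KO PBS and 42.7 and 41.1 CPM in WT. Macrophage markers summed to 395 to 852 CPM in KO AntimiR-21, 846 to 1109 CPM in KO PBS and 175 to 214 CPM in WT, with 9 of 10 higher in KO PBS. Of 9 tubule markers 5 fell in KO PBS relative to WT. Endothelial markers summed to 389 to 489 CPM in KO AntimiR-21, 428 to 577 CPM in KO PBS and 566 to 695 CPM in WT. None of the genes on these marker lists was at 0 in every library, and the part of cell numbers in the changes of the 10 genes was not tested.

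**Figure D5:**
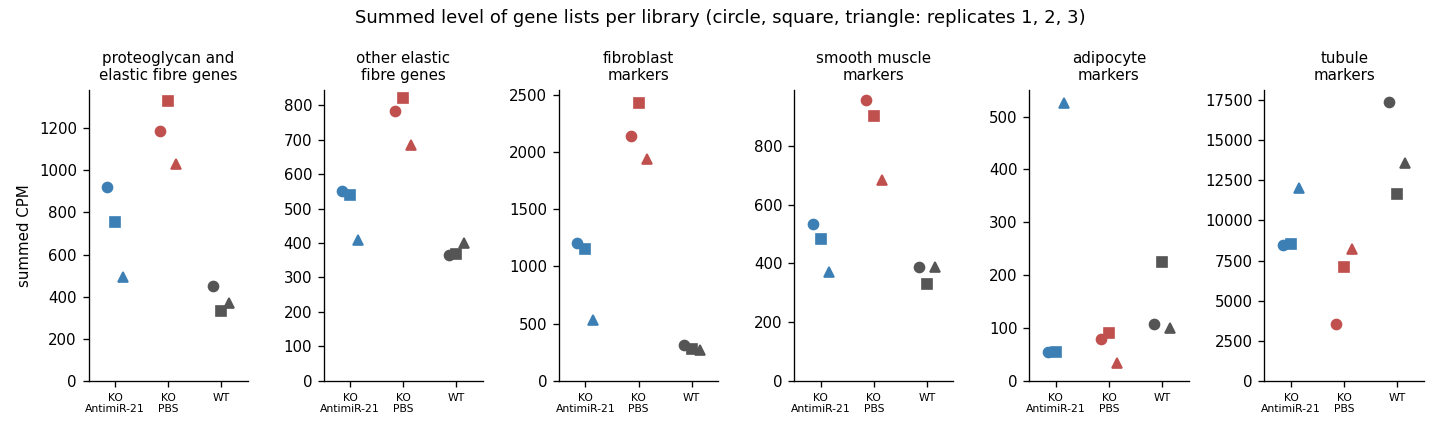
Summed CPM (vertical axes from 0) of the 10 genes, of the 24 other elastic fibre genes and of 4 marker lists in each library of KO AntimiR-21, KO PBS and WT; symbols mark replicates 1, 2 and 3. Sums of the 10 genes are 921, 755 and 491 in KO AntimiR-21, 1185, 1330 and 1030 in KO PBS, and 449, 333 and 369 in WT, and KO AntimiR-21 3 has the highest adipocyte sum.

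Within KO AntimiR-21 the same library, KO AntimiR-21 3, was lowest for the summed 10 genes and for the fibroblast, smooth muscle and macrophage sums, and highest for the adipocyte and tubule sums. In KO AntimiR-21 2 the adipocyte sum was 55.4 CPM and in KO AntimiR-21 1 it was 53.7 CPM, inside the range of KO PBS (33.7 to 91.1 CPM). Immediate early genes, which respond to handling of tissue, summed to 218 to 296 CPM in KO AntimiR-21, 311 to 656 CPM in KO PBS and 98.1 to 397 CPM in WT. Of 8 such genes 4 rose in KO PBS relative to WT (Jun, Junb, Atf3 and Ier2, named after their values were seen). Their list had a median of 1.31, against -0.03 over all genes, of which 14.6% rose. In KO AntimiR-21 relative to KO PBS 0 of 8 passed, at a median of -1.21. The part of these differences in the changes of the 10 genes, in KO PBS and in KO AntimiR-21, was not tested.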

How the data were processed

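The authors deposited a table of expected counts per gene symbol for each library, for which the submitters' processing notes name Bowtie, RSEM and mm9, and a log2 matrix, for which the notes name limma. Versions, gene annotation and strand setting are not given in the sources used here. Each matrix column equalled log2 CPM with 0.5 added to the counts, plus 1 constant per library. Library input was 150 ng of RNA per the labels, and groups were taken from sample titles.

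Rounded expected counts were filtered with filterByExpr. All 9 libraries entered 1 fit with 3 group means (edgeR 4.0.16 quasi-likelihood F test, TMM, R 4.3.3), with two-sided p-values adjusted by Benjamini-Hochberg over 17315 genes and a threshold of 0.05. DESeq2 1.42.0, limma 3.58.1 and other settings were alternatives; the sum of the Vcan and Cspg2 rows was added after seeing the data. The fitting script was tested on simulated data. For KO PBS against WT it called 22 of 100 genes with a true log2 change of 1 and 82 of 100 with 2. For KO AntimiR-21 against KO PBS it called 28 of 100 and 80 of 100, so most changes of 1 were missed. Sex was called from Ddx3y, Eif2s3y, Kdm5d and Uty (at least 10 CPM summed is male).

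The 10 genes and all lists were chosen with earlier results of these data known. From each of 6 pathway lists the 3 genes with the lowest p in KO PBS against WT, and in KO AntimiR-21 against KO PBS, were named. For 11 of 195 list symbols an older symbol was used, and 3 had no row. Replicates were not copies of one another, with chi-square values per gene of 31.1 to 139.7 within groups. Levels per length and untranslated regions used GENCODE vM21, whose build (GRCm38) differs from that of the counts, so no gene coordinates are given. Counts were made by symbol, and RSEM shares reads among similar copies.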

Additional observations from a re-analysis of the deposited data

How the results depend on the processing

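Over 21 alternatives the 7 calls in KO PBS against WT ran between 5 and 7 with 1 library left out (genes 2423 to 4332, lowest without KO PBS 1, then 2584 without KO PBS 2), and fell to 0 (genes 0) with sex as a covariate or with male libraries only, where a lone WT library is assumed to vary like the other groups. In KO AntimiR-21 against KO PBS 0 of the 10 genes were called in all 21, with 18 genes by DESeq2 and 0 with 1 library left out. In KO AntimiR-21 against WT the 4 calls among 1238 genes became 1 (genes 707) with only those groups in the fit and 0 (genes 0) with sex or library code as a covariate or male libraries only. DESeq2 had 2011 genes there, and leaving out 1 library gave 0 to 4 calls (genes 667 to 1602).

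To see whether replicate numbers pair samples, deviations of log2 CPM from the group mean were correlated over genes between libraries of different groups. These correlations were -0.37 to 0.44 for same-numbered libraries and -0.36 to 0.44 for differently numbered ones. The replicate numbers were therefore not taken to pair samples. With the numbers as a replicate block KO AntimiR-21 against WT kept 2 of the 4 calls (genes 923, against 1238), losing Fbln2 (1.10, edgeR adjusted p = 0.0523) and Mfap4 (1.96, edgeR adjusted p = 0.1), KO PBS against WT had 6 (genes 3205, against 4226; Fbln1 lost, 1.36, edgeR adjusted p = 0.0541) and KO AntimiR-21 against KO PBS 0.

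Signs held in 26 of 30 pairs of gene and comparison. The Vcan row turned in KO PBS against WT to 0.13 with limma on the deposited matrix and ran from -1.11 to 0.76 with 1 library left out, above 0 without WT 2. In KO AntimiR-21 it ran from -1.26 to 0.08 against KO PBS, above 0 without KO PBS 2, and from -1.85 to 0.31 against WT, above 0 without WT 2. Fbln5 in KO AntimiR-21 against WT, at -0.15, turned to 0.60 with sex and 0.04 with library code as a covariate and 0.63 in male libraries, and ran from -0.66 to 0.45 with 1 library left out, above 0 without WT 1 (0.45) or KO AntimiR-21 3 (0.12) and at 0.00 without KO AntimiR-21 2. The causes were not tested. Library size without TMM moved the median of all genes to 0.25 in KO PBS against WT, -0.14 in KO AntimiR-21 against KO PBS and 0.11 in KO AntimiR-21 against WT, and split the calls of the first into 3753 higher and 904 lower, against 2521 and 1705. Expected counts of the Vcan row (21 to 561) and of Mfap4 (23 to 440) limit their precision.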

Other observations

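Mesothelial markers of the renal capsule summed to 55.8 to 79.3 CPM in KO AntimiR-21, 76.4 to 163 CPM in KO PBS and 17.4 to 52.2 CPM in WT. These sums rest on Krt19, which averaged 90.2 ± 45.1 CPM in KO PBS and 14.9 ± 11.2 CPM in WT (SD). Krt19 was the only 1 of 4 tested mesothelial markers to rise in KO PBS relative to WT, where 14.6% of all genes rose. Msln, Upk3b and Wt1 stood at 1.45 ± 0.57, -1.02 ± 0.64 and 0.52 ± 0.30 and did not pass. Urothelial markers summed to 31.1 to 63.7 CPM in KO AntimiR-21, 19 to 62.9 CPM in KO PBS and 15.4 to 64.1 CPM in WT. Podocyte markers summed to 433 to 476 CPM in KO AntimiR-21, 375 to 507 CPM in KO PBS and 257 to 476 CPM in WT.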
